A study of Mus musculus with 9 samples.

Results

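The cadherin and integrin genes, whose products hold cells to each other and to the extracellular matrix, were followed in the adult mouse striatum of 3 *Shank3* genotypes. Members were taken by symbol, as each gene named *Cdh* with a number, each integrin alpha gene (*Itga* with a number, *Itgal*, *Itgam*, *Itgav* or *Itgax*) and the integrin beta genes *Itgb1* to *Itgb8*. This rule found 45 of the 15464 genes in the deposited table, 22 cadherins and 23 integrins. Of these, 41 reached 10 or more normalized counts in 3 or more libraries (20 cadherins, 14 integrin alpha genes and 7 integrin beta genes), as did 14239 genes in all. *Cdh3*, *Cdh17*, *Itga2* and *Itgax* stayed below this limit, with at most 13.4 normalized counts in a library, the value of *Itgax* in WT replicate 3. *Cdh16* and *Itgb6* were not analysed here. The symbol rule is wider than the name classical cadherin, which covers the 5 type I and 13 type II genes of the 22, and it also takes *Cdh13*, *Cdh17*, *Cdh23* and *Cdh26*.

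RNA was sequenced from the striatum of 9 male mice on a C57BL/6J background, aged 10 to 12 weeks, with 1 library per mouse. WT mice carry both *Shank3* alleles intact. HET mice (Shank3 heterozygous) carry 1 *Shank3B* allele, in which exons 13 to 16 of *Shank3* are targeted, and KO mice (Shank3 knockout) carry this allele on both chromosomes, in every cell of the body. There were 3 mice of each genotype, littermates without further treatment. The study asked whether the dose of *Shank3*, a scaffold of excitatory synapses, shifts gene expression in the striatum.

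Classical cadherins are calcium-dependent adhesion proteins that bind mostly cadherins on the neighbouring cell and reach the actin cytoskeleton through catenins. They line the borders of synapses, and type II members label particular nuclei and connections of the forebrain. Integrins are pairs of 1 alpha and 1 beta chain that bind laminin, collagen, fibronectin or cell surface ligands and link them to actin through talin and kindlin. An alpha chain reaches the cell surface only with a beta partner, and vessels, glia, microglia and neurons each use their own pairs.

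The values are normalized counts, and the number of reads behind them is unknown. Their sums lay between 3.08e+07 and 3.38e+07 per library, of which the cadherin and integrin genes held 0.0982% to 0.110%. On the first principal component of all genes (33.6% of the variance), HET replicate 3 and KO replicate 3 stood apart from the other 7 libraries. Results that rest on them are therefore also given without them. They did not stand apart on the first component of the cadherin and integrin genes (35.7% of the variance). There their scores of −0.22 and −0.042 lay within the range of the other 7 libraries, −0.47 to 0.47, with both ends in HET libraries. *Shank3* had 7209, 8812 and 6043 normalized counts in WT, 7575, 7098 and 8049.9 in HET and 10237, 10798 and 10578 in KO, so all KO libraries lay above all WT libraries. These sums over the whole gene do not resolve the targeted exons, and the KO allele therefore cannot be checked by a loss of counts. All 10 markers of medium spiny neurons, the main neurons of the striatum, were detected, with summed levels of 59721 to 117457 in WT, 85277 to 103868 in HET and 51130 to 89338 in KO.

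No cadherin or integrin gene differed between genotypes at an adjusted p under 0.05. To compare levels between genes, each mean over the 9 libraries was divided by the length of the longest coding transcript in kb. On this scale *Cdh13* came first with 1023 normalized counts per kb, followed by *Cdh2* with 652, *Itgb1* with 502 and *Cdh22* with 482. *Cdh26* came last of the 41 with 4.42, next to *Cdh23* with 5.66 and *Cdh1* with 5.96. When the length of all exons together was used, *Cdh22* came first and *Cdh13* took rank 5, so the order at the top depends on the length chosen. The median level of the 41 genes was 566 normalized counts against 767 for all genes tested, and 14 of the 41 lay above the latter.

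**Figure D1:**
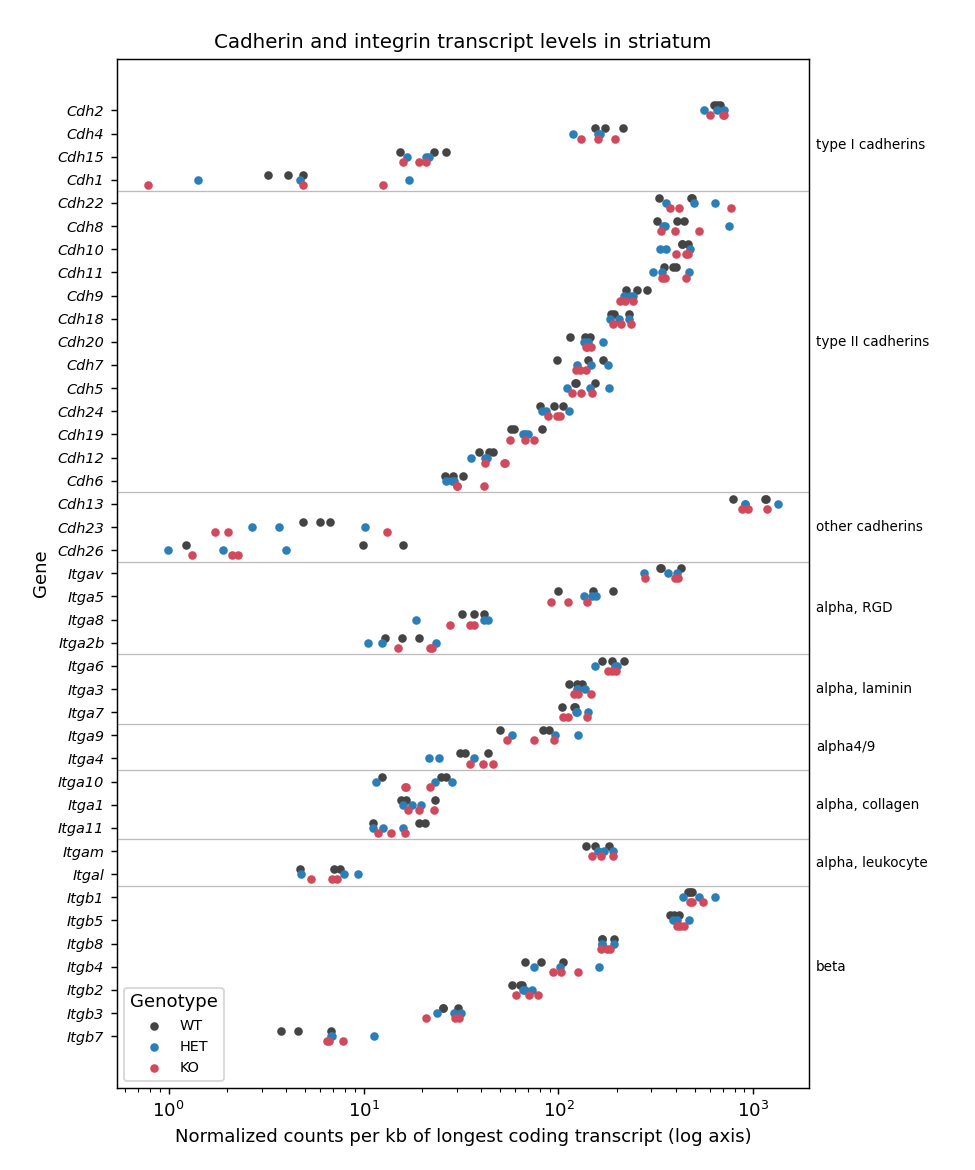
Transcript level of the 41 cadherin and integrin genes in each of the 9 striatal libraries, as normalized counts per kb of the longest coding transcript on a log axis. Each point is 1 mouse, coloured by genotype. *Cdh13* and *Cdh2* sit at the top, *Cdh26*, *Cdh23* and *Cdh1* at the bottom, and the 3 genotypes are interleaved at nearly every gene.

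Among the type I cadherins, *Cdh2* encodes N-cadherin, the cadherin of most central synapses. *Cdh2* had 3058, 3161 and 3280.0 normalized counts in WT, 2711, 3409.6 and 3145 in HET and 2885, 3366 and 3413 in KO. The genotypes overlapped completely, and the 95% interval of the difference from WT ran from −0.28 to 0.20 in HET and from −0.22 to 0.26 in KO on the log2 scale. *Cdh4*, R-cadherin, had 1102, 1363 and 982 normalized counts in WT, 1044, 1014 and 761 in HET and 837, 1245 and 1024 in KO. Its lowest value was in HET replicate 3 and its highest in WT replicate 2, and HET and WT overlapped. *Cdh15*, M-cadherin, known from muscle and cerebellum, had 85.9, 74.8 and 50.05 normalized counts in WT, 70.5, 54.4 and 67.8 in HET and 62.4, 68.3 and 51.6 in KO. *Cdh1*, E-cadherin of epithelia, had 21.6, 14.3 and 18.1 normalized counts in WT, 6.30, 75.4 and 20.8 in HET and 3.49, 21.7 and 55.97 in KO, a 21.6-fold span from KO replicate 1 to HET replicate 2 that was the widest of the 41 genes.

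The spread of *Cdh1* lay within genotypes, not between them. Markers of meninges and fibroblasts (8 of 8 tested, none at 0) spanned 1504 to 2443 summed normalized counts in WT, 1172 to 4286 in HET and 930 to 2754 in KO. Their lowest libraries were KO replicate 1 and HET replicate 1, and their highest was HET replicate 2, as for *Cdh1*. Their part in the *Cdh1* values was not tested. *Cdh1* and the following genes *Cdh5* and *Cdh6* were picked after their values were seen.

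All 13 type II cadherins were detected, and *Cdh22*, *Cdh8* and *Cdh10* were the highest of them per kb. *Cdh22* had 1212, 1796 and 1782 normalized counts in WT, 1319, 1839.7 and 2357 in HET and 1383, 1544 and 2831 in KO. Its highest library in each mutant genotype was replicate 3, and the other mutant libraries lay within or near the WT range. *Cdh8*, known from corticostriatal circuits, had 1866, 2029 and 1474 normalized counts in WT, 1624, 1584 and 3443 in HET and 1827, 1546 and 2427 in KO. Again HET replicate 3 and KO replicate 3 exceeded every other library. *Cdh10* had 1472, 1474 and 1579.5 normalized counts in WT, 1217, 1603 and 1134 in HET and 1373, 1542 and 1573 in KO, with the lowest values in HET replicates 3 and 1 and the KO libraries within or below the WT range. The other type II genes were *Cdh11*, between 1726 and 2636 normalized counts over the 9 libraries, *Cdh9* (735 to 1003), *Cdh18* (504 to 648), *Cdh20* (459 to 681), *Cdh7* (485 to 889), *Cdh24* (279.6 to 395), *Cdh19* (220.4 to 323), *Cdh12* (213 to 321), and *Cdh5* and *Cdh6*, which are described separately. In each of these 8 genes the ranges of the genotypes overlapped. The log2FC from WT of the 13 genes lay between −0.21 and 0.22 in HET and between −0.18 and 0.21 in KO, and all 13 had 95% intervals within −1 and 1.

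*Cdh5*, VE-cadherin, is the cadherin of endothelial junctions. *Cdh5* had 483, 616 and 489.7 normalized counts in WT, 442, 581 and 725 in HET and 469, 519 and 596 in KO. Its highest libraries were HET replicate 3 and WT replicate 2. Endothelial markers (7 of 9 tested, none of these at 0) summed to 5275 to 5608 in WT, 5459 to 6355 in HET and 5487 to 5639 in KO, with their highest values in HET replicates 2 and 3. Their part in the *Cdh5* values was not tested.

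*Cdh13*, T-cadherin, lacks the cytoplasmic part that binds catenins and is held by a lipid anchor. *Cdh13* had 4388, 4328 and 2973 normalized counts in WT, 3411, 3419 and 5048 in HET and 3316, 3554 and 4425 in KO. Its lowest library was WT replicate 3 and its highest HET replicate 3, and the genotypes overlapped. *Cdh23*, part of the tip links of hair cells, had 54.1, 74.5 and 66.4 normalized counts in WT, 40.7, 113 and 29.8 in HET and 22.3, 146 and 19.3 in KO, and replicate 2 was the highest in each genotype. *Cdh26*, known from epithelia, had 3.58, 28.8 and 46.5 normalized counts in WT, 2.90, 11.7 and 5.55 in HET and 6.63, 6.16 and 3.84 in KO. WT replicates 2 and 3 were above every mutant library, while WT replicate 1 lay within the mutant range. *Cdh26* had the largest difference from WT of the 41 genes, a log2FC of −1.44 in HET (95% interval −3.22 to 0.34) and −1.54 in KO (95% interval −3.32 to 0.24). Neither interval excludes 0, and without WT replicate 1 the values were −2.45 and −2.55, both at an unadjusted p under 0.05.

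Of the integrin alpha chains that bind the RGD peptide motif of fibronectin, vitronectin and related ligands, *Itgav* was the highest per kb. *Itgav* had 2985, 2382 and 2342 normalized counts in WT, 2568, 2865 and 1935 in HET and 2911, 2809 and 1962 in KO. HET replicate 3 and KO replicate 3 were the lowest of the 9 libraries. *Itga5*, the alpha chain of the main fibronectin receptor, had 658, 833 and 434 normalized counts in WT, 652, 593 and 686 in HET and 612, 491 and 401 in KO, with WT replicates 2 and 3 spanning all but 1 of the other libraries. *Itga8*, a nephronectin receptor, had 242, 215 and 185 normalized counts in WT, 107, 241 and 252 in HET and 206, 162 and 213 in KO, with 1 low library, HET replicate 1. *Itga2b*, the platelet chain, lay between 36.1 and 81.2 normalized counts.

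The laminin-binding chains *Itga6*, *Itga3* and *Itga7* were present at similar levels, with 187, 128 and 122 normalized counts per kb. *Itga6* had 937, 718 and 811 normalized counts in WT, 841, 863 and 660.3 in HET and 850.0, 808 and 771 in KO. The genotypes overlapped, and HET replicate 3 was the lowest library. *Itga3* had 602, 642 and 549.9 normalized counts in WT, 606, 609 and 668 in HET and 613, 585 and 709.7 in KO, with one of the smallest spreads of the 41 genes, a within-genotype SD of 0.12 on the log2 scale. *Itga7* had 419, 481 and 492 normalized counts in WT, 572, 493 and 499 in HET and 452, 425 and 563 in KO. All HET libraries lay above all WT libraries, the lowest HET library by under 2 normalized counts, while the KO libraries overlapped both.

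The chains that bind VCAM-1, tenascin and fibronectin outside the RGD motif, *Itga9* and *Itga4*, differed in level and pattern. *Itga9* had 586, 626 and 354 normalized counts in WT, 677, 406 and 885 in HET and 525, 381 and 665 in KO, a wide spread within each genotype. *Itga4* had 424, 304 and 324 normalized counts in WT, 211, 359 and 237 in HET and 344, 452 and 402 in KO. HET replicates 1 and 3 were the lowest libraries of all, and HET replicate 2 lay between the KO libraries. The collagen-binding chains were low, with *Itga10* at 20.2, *Itga1* at 18.7 and *Itga11* at 14.8 normalized counts per kb. *Itga10* had 133, 62.8 and 126 normalized counts in WT, 144, 117 and 58.2 in HET and 110.0, 82.4 and 83.8 in KO. *Itga1* had 256, 169.8 and 181 normalized counts in WT, 194, 175 and 216 in HET and 252, 211 and 186 in KO. *Itga11* had 102, 95.98 and 55.8 normalized counts in WT, 79.1, 55.6 and 62.9 in HET and 81.2, 68.5 and 58.8 in KO. In each of these 3 genes the genotypes overlapped, and WT replicate 1 or HET replicate 1 was the highest library.

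*Itgam* and *Itgal* encode the alpha chains of the complement receptor of microglia and of the lymphocyte integrin LFA-1. *Itgam* had 846, 724 and 648 normalized counts in WT, 803, 744 and 893 in HET and 891, 772 and 696 in KO. *Itgal* had 36.98, 39.5 and 24.5 normalized counts in WT, 49.2, 41.6 and 24.99 in HET and 28.2, 35.9 and 38 in KO. Both overlapped between genotypes, and per kb *Itgam* was at 167 and *Itgal* at 6.78 normalized counts. *Itgb2*, their shared beta chain, had 189, 194 and 173 normalized counts in WT, 200.2, 196 and 216 in HET and 233, 180.3 and 210.2 in KO, so all HET libraries lay above all WT libraries, the lowest by under 2 normalized counts. Microglial markers (10 of 10 tested, none at 0) summed to 13503 to 14770 in WT, 13943 to 15565 in HET and 13593 to 14821 in KO. Their part in the *Itgb2* values was not tested, and in bulk tissue fewer cells of a type and less RNA per cell cannot be told apart.

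The beta chains ranged from *Itgb1*, the partner of most alpha chains, at 502 normalized counts per kb, to *Itgb7*, a lymphocyte chain, at 6.799. *Itgb1* had 1804, 1846 and 1767 normalized counts in WT, 1657, 1997 and 2420.2 in HET and 1804, 1839 and 2095 in KO. The WT libraries were close together and HET replicate 3 and KO replicate 3 were the highest. *Itgb5*, a partner of *Itgav*, had 1285, 1369 and 1223 normalized counts in WT, 1275, 1337 and 1528 in HET and 1386, 1337 and 1449 in KO, the smallest within-genotype SD of the 41 genes (0.097 on the log2 scale). *Itgb8*, the *Itgav* partner known for activating TGF-beta in the brain, had 1413, 1403 and 1628 normalized counts in WT, 1407, 1624 and 1399 in HET and 1488, 1551 and 1389 in KO. Its 95% intervals, −0.23 to 0.22 in HET and −0.23 to 0.22 in KO, bound the difference from WT most closely after those of *Itgb5*.

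The remaining beta chains were low or variable. *Itgb7* had 18.2, 10.1 and 12.4 normalized counts in WT, 18.6, 18.2 and 30.3 in HET and 20.95, 17.4 and 17.9 in KO. WT replicate 1 lay within the range of the mutant libraries, and WT replicates 2 and 3 lay below it. *Itgb4*, the partner of *Itga6* in hemidesmosomes, had 417, 504 and 656 normalized counts in WT, 465, 635 and 998 in HET and 581, 780.4 and 642 in KO, with its highest value in HET replicate 3. *Itgb3* lay between 121 and 184 normalized counts. *Itgb4* was picked after its values were seen.

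Alpha and beta chains that form pairs were set side by side as sums per kb. The 12 alpha chains of the table that can pair with *Itgb1*, including the barely detected *Itga2*, summed to 1144 ± 118 normalized counts per kb in WT (mean ± SD, n = 3 mice), 1144 ± 52.7 in HET and 1117 ± 72.0 in KO. Their ratio to *Itgb1* was 2.42 ± 0.23, 2.22 ± 0.50 and 2.24 ± 0.31 in the same order. *Itgav* over the sum of *Itgb3*, *Itgb5* and *Itgb8* gave 0.611 ± 0.097, 0.562 ± 0.129 and 0.581 ± 0.124. The leukocyte alpha chains, *Itgax* included, over *Itgb2* gave 2.68 ± 0.28, 2.66 ± 0.10 and 2.54 ± 0.32. *Itga6* over *Itgb4* gave 2.36 ± 0.77, 1.84 ± 0.83 and 1.78 ± 0.31. In each of these ratios the means differed by less than the largest SD. HET replicate 3 had the lowest ratio of all 9 libraries for *Itgb1*, *Itgav* and *Itga6* (1.71, 0.413 and 0.953).

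**Figure D2:**
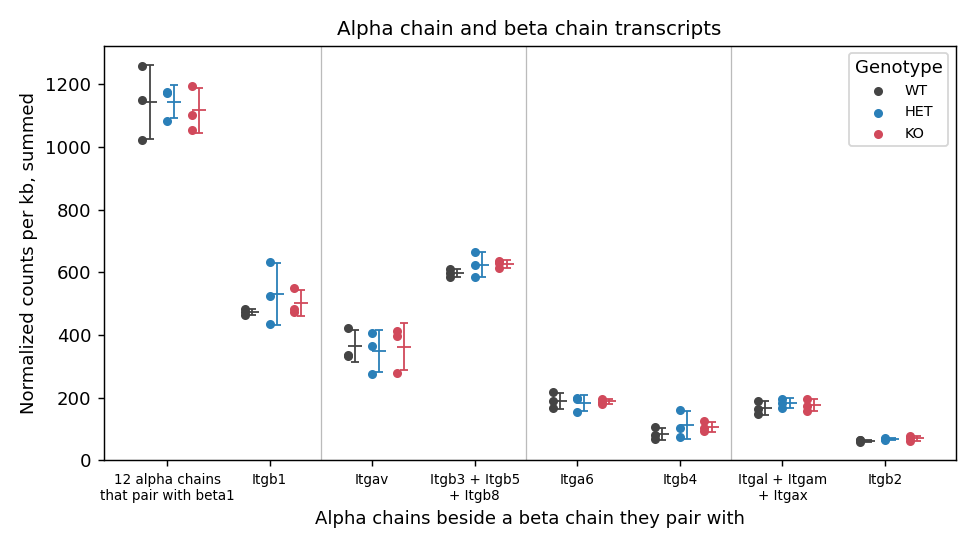
Summed levels of integrin alpha chains beside the beta chains they pair with, in normalized counts per kb of the longest coding transcript. Points are mice coloured by genotype, and the cross and bar are the mean and SD of 3 mice. The alpha chains that pair with beta1 sum to 1023 to 1259 per kb with HET and KO inside the WT range, and *Itgb1* lies between 434 and 634, with the highest value in HET replicate 3.

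In HET against WT, 0 of the 41 genes passed an adjusted p of 0.05 (limma with Benjamini-Hochberg adjustment over 14239 genes), as did 0% of all genes tested. An unadjusted p under 0.05 was reached by 0 of the 41 and by 1.11% of all genes. *Itga7* and *Itgb2* were the 2 genes whose HET libraries all lay outside the WT range, both above it, against 4.45% of all genes. The log2FC of *Itga7* (ENSMUSG00000025348, GRCm38, plus strand of chromosome 10 from 128933818 to 128958282) was 0.17 with a 95% interval of −0.13 to 0.47. *Itgb2* (ENSMUSG00000000290, plus strand of chromosome 10 from 77530252 to 77565708) differed by 0.14 with an interval of −0.17 to 0.45. Without WT replicate 1 *Itga7* stood at 0.097, and without WT replicate 3 *Itgb2* stood at 0.091. Both intervals include 0, and p was 0.1 for each gene in a two-sided exact permutation test, the smallest p that 3 mice against 3 allow.

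Over the 41 genes the median log2FC in HET was 0.020, against −0.0027 for all genes, with 22 genes above 0 and 19 below. The integrin beta chains stood at a median of 0.14 with 6 of 7 above 0, the alpha chains at −0.035 with 6 of 14 and the cadherins at −0.019 with 10 of 20. *Itgb7* had the highest value, 0.68 (95% interval −0.05 to 1.41), at a mean of 18.2 normalized counts. *Itgb4* followed with 0.36 (95% interval −0.22 to 0.94), which became 0.071 without HET replicate 3. Without HET replicate 3 *Itgb7* stood at 0.447, *Itgb1* fell from 0.148 to 0.011 and *Itgb2* fell from 0.141 to 0.099. The median of the beta chains was not computed without this library, which raised each of these values. In this comparison the median log2FC was 0.28 for oligodendrocyte markers (9 of 10 above 0), 0.22 for blood markers (5 of 5), 0.18 for endothelial markers (7 of 7) and 0.12 for pericyte and smooth muscle markers (7 of 8). The other marker lists ranged from −0.12 for cortical projection neurons (1 of 8) to 0.10 for astrocytes (6 of 8), with microglia at 0.027 (5 of 10). The part of these cells in the beta chain values was not tested. The 95% interval lay within −0.5 and 0.5 for 22 of the 41 genes (53.7%, against 59.7% of all genes), so a difference of 0.5 on the log2 scale remained possible for the other 19.

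In KO against WT, 0 of the 41 genes passed an adjusted p of 0.05 in limma with Benjamini-Hochberg adjustment (0% of all genes), and 0 reached an unadjusted p under 0.05 (0.822% of all genes). *Shank3* did not pass the adjusted threshold either, although the study called it in KO with DESeq2. All its KO libraries lay above all WT libraries, so this fit can miss such a difference. None of the 41 genes had all KO libraries outside the WT range, a pattern held by 4.54% of all genes. The median log2FC was 0.015, against 0.0047 for all genes, with 23 genes above 0 and 18 below. *Itgb7* (0.47, 95% interval −0.26 to 1.20) and *Itgb4* (0.36, 95% interval −0.22 to 0.94) had the highest values. They came down to 0.295 without WT replicate 2 and to 0.204 without WT replicate 1. By family, the beta chains stood at a median of 0.11 with 5 of 7 above 0. The alpha chains stood at 0.023 with 8 of 14, and the cadherins at −0.00054 with 10 of 20. Marker lists ranged from −0.27 for meninges and fibroblasts (0 of 8) to 0.15 for choroid plexus and ependyma (5 of 7). Medium spiny neuron markers stood at −0.26 (1 of 10). The part of these cells in the values was not tested. The interval lay within −0.5 and 0.5 for 21 of the 41 (51.2%, against 61.3% of all genes). HET and KO were compared with the same 3 WT libraries, so their values are not independent of each other.

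**Figure D3:**
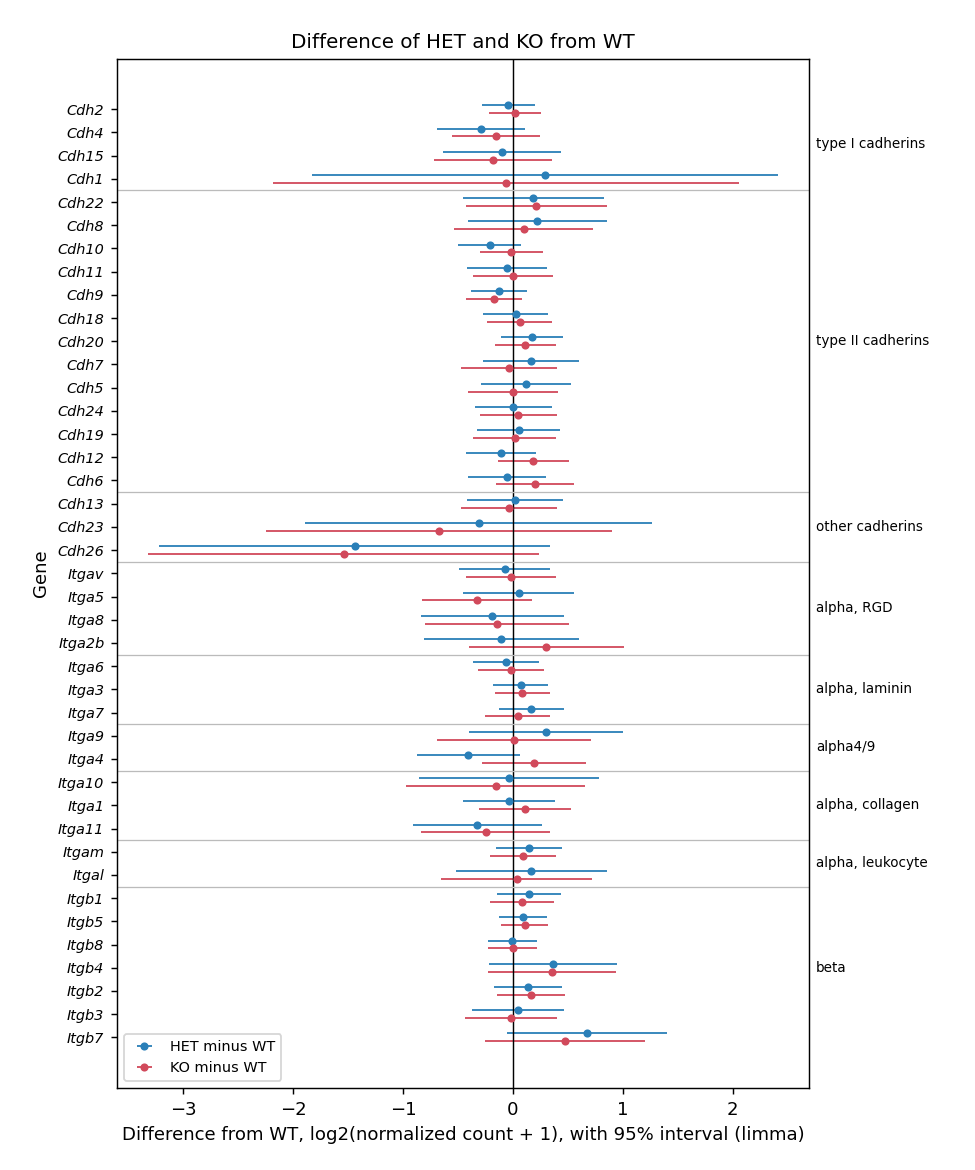
Difference of HET and KO from WT for the 41 genes, as log2(normalized count + 1) with the 95% interval from limma. Points are the fitted differences of 3 against 3 mice. Every interval crosses 0, and those of *Cdh26*, *Cdh1* and *Cdh23* are the widest.

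In KO against HET, *Itga4* was the 1 gene of the 41 with an unadjusted p under 0.05, a threshold reached by 1.31% of all genes. *Itga4* (ENSMUSG00000027009, plus strand of chromosome 2 from 79255426 to 79333123) encodes the alpha4 chain, which pairs with *Itgb1* or *Itgb7* and binds VCAM-1 and fibronectin. Its mean was 351 ± 64.1 normalized counts in WT (SD, n = 3 mice), 269 ± 79.2 in HET and 399 ± 53.98 in KO. The log2FC of KO against HET was 0.60 (standard error 0.21, 95% interval 0.13 to 1.07) and did not pass after adjustment (limma, Benjamini-Hochberg, adjusted p = 0.9999). In a two-sided exact permutation test that leaves the replicate numbers aside p was 0.2, since HET replicate 2 exceeded KO replicate 1. Between HET and KO libraries of the same number KO was higher in 3 of 3, in the same libraries that gave the unadjusted call. Whether the numbers pair these libraries is not known, and the share of all genes with this pattern was not counted. With the replicate number as a block *Itga4* was also the 1 gene of the 41 under the unadjusted threshold, while the count over all genes went from 186 to 318. The unadjusted call was lost without HET replicate 1, HET replicate 3 or KO replicate 2. Against WT the log2FC was −0.40 in HET (95% interval −0.88 to 0.067) and 0.19 in KO (95% interval −0.28 to 0.66).

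Part of the *Itga4* transcript is shared with a neighbour. Of the 31-base windows in its longest coding transcript 13.2% also occur in transcripts of other genes, mostly *Cerkl*, so reads may have been divided between them. *Cerkl* had 55.99, 36.1 and 43.4 normalized counts in WT, 30.4, 50.8 and 15.9 in HET and 39.5, 45.3 and 29.2 in KO. In both genes the highest library of each genotype was the same one, WT replicate 1, HET replicate 2 and KO replicate 2, and HET replicates 1 and 3, the lowest of *Itga4*, were low for *Cerkl* too. Its part in the *Itga4* values was not tested. The beta partners *Itgb1* and *Itgb7* differed between KO and HET by −0.068 (95% interval −0.36 to 0.22) and −0.21 (95% interval −0.93 to 0.52).

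*Cdh6*, a type II cadherin, was the 1 gene whose KO libraries all lay above the HET libraries, a separation held in either direction by 4.45% of all genes. *Cdh6* (ENSMUSG00000039385, minus strand of chromosome 15 from 13028701 to 13173675) had 266, 214 and 236 normalized counts in WT, 233, 216 and 237 in HET and 245, 339 and 245 in KO. The WT libraries overlapped both mutant genotypes, and KO replicate 2 stood above the rest. The log2FC of KO against HET was 0.26 (95% interval −0.10 to 0.61; two-sided exact permutation test, p = 0.1), and 0.10 without KO replicate 2. No gene of the 41 passed an adjusted p of 0.05 in this comparison (limma with Benjamini-Hochberg adjustment), as for 0% of all genes, and the median log2FC was −0.0054 against −0.00099 for all genes.

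**Figure D4:**
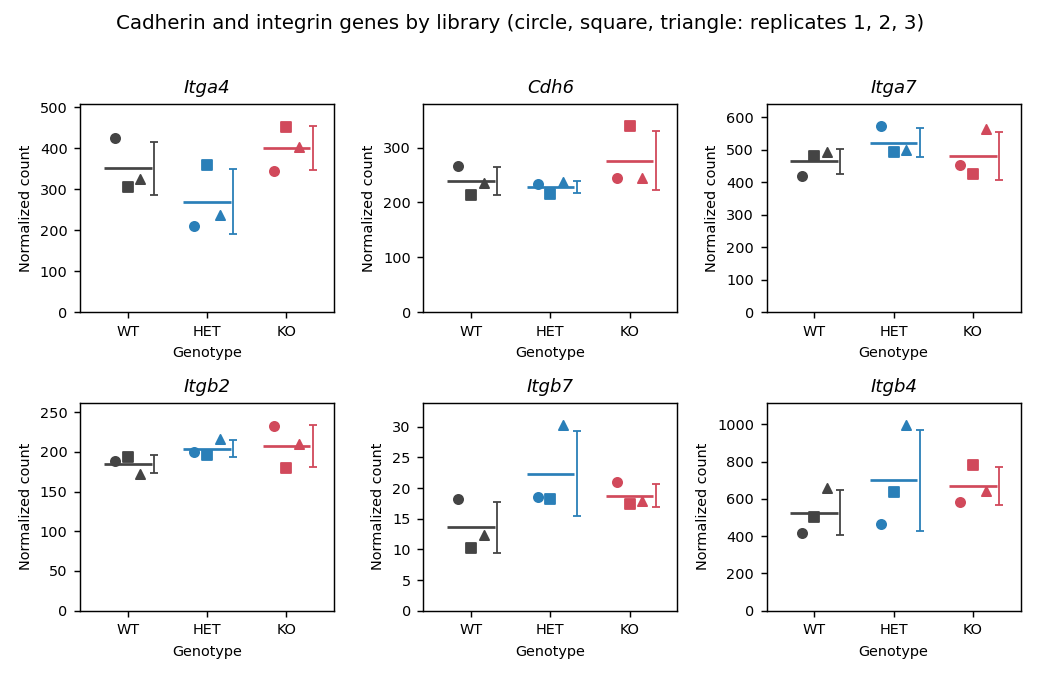
Normalized counts of *Itga4*, *Cdh6*, *Itga7*, *Itgb2*, *Itgb7* and *Itgb4* in each library, with the axis from 0. Symbols mark the replicate number, the line is the mean and the bar the SD of 3 mice. HET libraries of *Itga7* and *Itgb2* lie just above the WT range, and the KO libraries of *Cdh6* lie above the HET libraries.

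The within-genotype SD on the log2 scale had a median of 0.255 over the 41 genes and 0.192 over all genes tested. The median absolute log2FC of the 41 genes was 0.13 in HET and 0.099 in KO, against 0.088 and 0.079 for all genes. Means of 3 mice mostly differ by less than the SD of single mice even without a genotype effect, so these values cannot decide whether genotype matters. The SD was under 0.2 for 16 genes and over 1 for 3, *Cdh1*, *Cdh26* and *Cdh23*. *Itgb5*, *Itgb8* and *Itga3* varied least.

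The libraries HET replicate 3 and KO replicate 3 both lay outside the range of the other 7 libraries at 12 of the 41 genes (29.3%), against 35.6% of all genes. They were above it at 9 genes (*Cdh8*, *Cdh22*, *Cdh13*, *Cdh11*, *Itgb1*, *Cdh18*, *Cdh20*, *Itga3* and *Itgb5*), against 19.2% of all genes, and below it at 3 (*Itgav*, *Cdh9* and *Itgb8*), against 16.4% of all genes. Among these 12 genes the mean difference of these 2 libraries from the others reached 0.77 on the log2 scale for *Cdh8*, 0.75 for *Cdh22* and −0.46 for *Itgav*. The variable genes *Cdh23* (−1.36), *Cdh1* (1.07) and *Cdh26* (−0.94) differed more, but there the range of the other libraries held 1 or both of these libraries. The 13 type II cadherins summed to 3354 and 3305 normalized counts per kb in these libraries and to 2477 to 2828 in the others. With both left out, the log2FC of *Cdh8* turned from 0.22 to −0.145 in HET and from 0.10 to −0.078 in KO. *Cdh22* turned from 0.19 to −0.012 and from 0.21 to −0.105. Astrocyte markers (8 of 8 tested, none at 0) also had their highest sums in these 2 libraries, 165506 and 160185 against 133013 to 157525 in the others, and their part in these values was not tested. The other marker lists did not set the 2 libraries apart together. Medium spiny neuron markers summed to 86383 in HET replicate 3 and 51130 in KO replicate 3, and oligodendrocyte markers to 242182 and 138170.

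**Figure D5:**
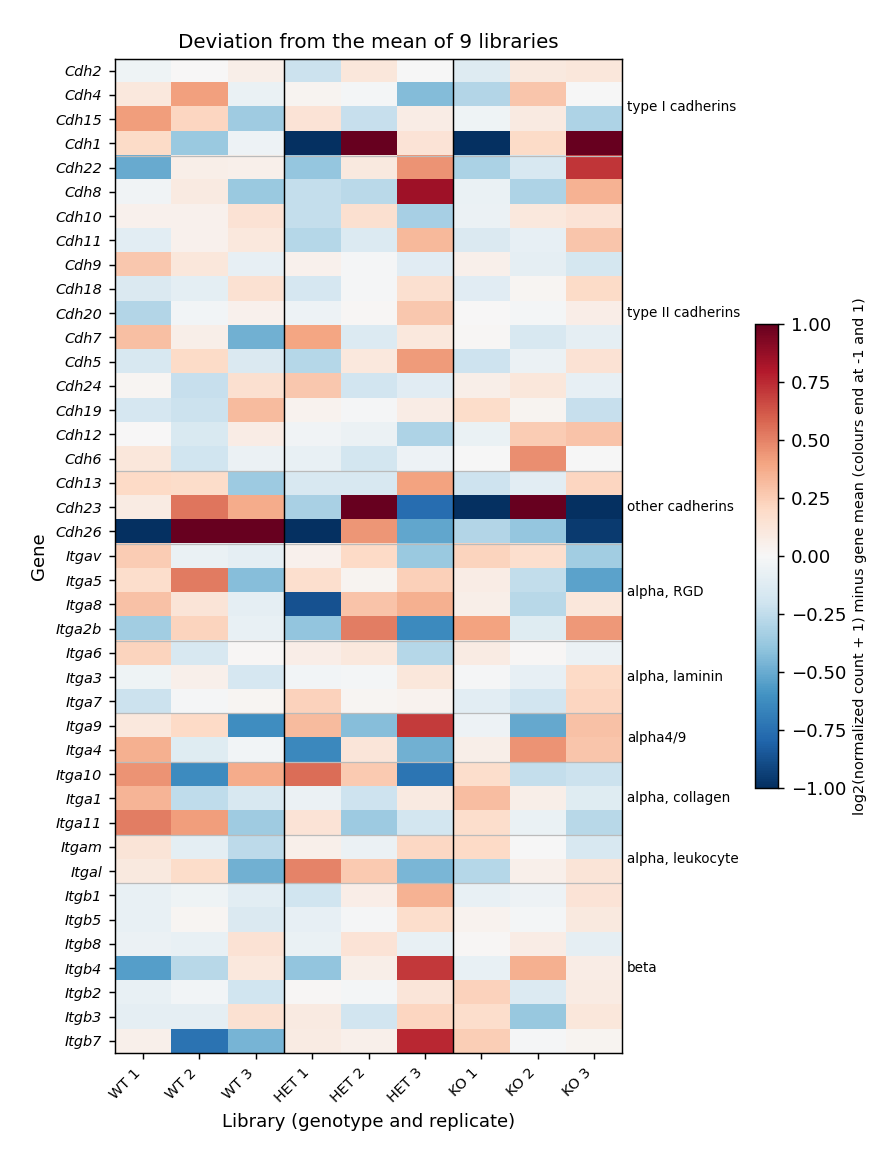
Deviation of each library from the mean of the 9 libraries, on the log2 scale, for the 41 genes grouped by family. Red is above and blue below the gene's mean, and colours end at −1 and 1. HET replicate 3 and KO replicate 3 are red together at *Cdh22*, *Cdh8*, *Cdh11* and *Cdh13*, and blue at *Itgav*.

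The partners inside and outside the cell were compared from lists of catenins and adaptors, integrin adaptors and kinases, and integrin ligands. Of the catenins and cadherin adaptors 15 of 15 were tested, of the integrin adaptors and kinases 31 of 32, and of the integrin ligands 32 of 33. None of these genes passed an adjusted p of 0.05 in any comparison (limma with Benjamini-Hochberg adjustment). At an unadjusted p under 0.05 there was 1 gene in each comparison, *Lims2* in HET against WT and *Plekha7* in KO against WT and in KO against HET, beside 1.11%, 0.822% and 1.31% of all genes. With the replicate number as a block there were 4 genes in each comparison, again with *Lims2* in HET and *Plekha7* in KO, beside 365, 310 and 318 of all 14239 genes. *Lims2*, PINCH2, an adaptor of the integrin-linked kinase, had 328, 388 and 386 normalized counts in WT, 401, 503 and 472 in HET and 444, 478 and 401 in KO. All HET and all KO libraries exceeded the WT libraries, with a log2FC of 0.32 (standard error 0.13) in HET and 0.26 (standard error 0.13) in KO. *Plekha7*, which joins the cadherin complex at p120 catenin, had 1179, 931 and 1111 normalized counts in WT, 998, 1049.7 and 1157 in HET and 1183, 1467 and 1284 in KO, and its KO libraries lay above both other genotypes, with a log2FC of 0.29 (standard error 0.12) from WT and 0.29 from HET. Without WT replicate 2 the value from WT was 0.19. The lowest KO library of *Plekha7* exceeded the highest WT library by under 5 normalized counts.

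The median log2FC of the catenin list was 0.022 in HET and 0.035 in KO, that of the integrin adaptors 0.040 and 0.036, and that of the ligands 0.014 and 0.046. *Shank3* lies on chromosome 15, as do 7 of the 41 genes. *Itgb7* and *Itga5* are 12.7 and 13.8 Mb from *Shank3*, and *Cdh6*, *Cdh9*, *Cdh10*, *Cdh12* and *Cdh18* are 66.0 to 76.3 Mb away. The median log2FC of these 7 was −0.056 in HET, with 3 above 0, and 0.063 in KO, with 4 above 0.

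Some values are less certain because transcripts share sequence. In a comparison of 31-base windows of the GENCODE M21 transcripts, 74.1% of the *Itgam* windows also occurred in Gm49368 and other genes, and 33.0% of those of *Itga10* in Gm42957 and others. *Itgax* shared 12.8%, mainly with *Itgad*. The share was under 5% for 35 of the 45 genes, and 19 of these shared no window, among them *Itgb8* and *Cdh23*.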

How the data were processed

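Striatal RNA of 3 WT, 3 HET and 3 KO mice was measured by RNA-seq with a stranded mRNA kit. For the deposited table the authors estimated transcripts with Salmon 0.9.1 on GRCm38 with GC bias correction, summed them per gene with tximport and divided them by DESeq2 1.19.11 factors in R 3.6.0, so each deposited value is a signal in normalized counts. Groups and replicate numbers were taken from the labels, and 0 columns were left unused. Whole reads could not be recovered from the values, so the depth is unknown and errors rest on the variation among mice.

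The analysis scale was log2(normalized count + 1). Genes with at least 10 in at least 3 libraries were fitted with limma 3.58.1 (R 4.3.3, trend option), with genotype as the factor over all 9 libraries, with Benjamini-Hochberg adjustment over 14239 genes and a threshold of 0.05. On this scale fold changes of low genes are too small. Single genes were compared with exact two-sided permutation tests. A symbol was given for 15457 genes and lacking for 7. Lengths and coordinates come from GENCODE M21 (GRCm38), whose release may differ from the one used by the authors.

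The members, lists and rules were chosen with earlier results of these data known. Values in every library are given for the 3 highest genes per kb of each subgroup with 4 or more detected members and all genes of smaller subgroups, for genes with an unadjusted p under 0.05 in any comparison, for genes whose libraries of a mutant genotype all lie outside the WT range, and for their known integrin partners. Adaptors and ligands were named at an unadjusted p under 0.05 against WT. Whether replicate numbers pair the libraries was checked by the correlation of their deviations from the genotype mean. For the same number, HET and KO gave 0.52, 0.28 and 0.51, WT and HET at 0.32, −0.014 and 0.0054, and WT and KO at 0.24, −0.22 and 0.024. Libraries of unlike numbers were not correlated, and HET replicate 3 and KO replicate 3 stood apart from the other libraries together. These values therefore cannot decide whether the numbers pair the libraries. What the numbers stand for is not given in the sources used here. Alternatives were other pseudocounts (0.5 and 8), filters, scalings, variance priors, library weights, fits of 2 genotypes alone, a replicate block and left-out libraries. Figures were drawn with matplotlib 3.10.9. Single exons and splice forms were not analysed here.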

Additional observations from a re-analysis of the deposited data

Results flagged for a closer look

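*Itga4* differed between KO and HET by a log2FC of 0.60 at an unadjusted p under 0.05 in limma. The WT values do not enter this difference. With all 9 libraries, neither HET nor KO differed from WT at an unadjusted p under 0.05 in limma. HET replicates 1 and 3 lay below every other library. Leaving out any 1 library, the value stayed between 0.44 and 0.83. The unadjusted call was lost without HET replicate 1, HET replicate 3 or KO replicate 2 and without both HET replicate 3 and KO replicate 3, and the adjusted threshold was not passed.

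*Cdh6* differed between KO and HET by a log2FC of 0.26. All HET libraries lay below the WT mean of 238 normalized counts and all KO libraries above it, and the opposite directions themselves were not tested. HET and KO libraries on opposite sides of the WT mean, in either direction, were found at 139 genes, 0.976% of all genes tested.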

How the results depend on the processing

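The adjusted threshold was passed by 0 of the 41 genes in each comparison under each of the 20 alternative settings. At an unadjusted p under 0.05, HET against WT gave 1 gene (*Itgb7*) without a trend in the variance prior and 1 (*Cdh11*) without the 2 libraries HET replicate 3 and KO replicate 3. With single libraries left out the count ranged from 0 to 2 (*Itgb1* and *Itgb4* without HET replicate 1, *Cdh10* and *Itga4* without HET replicate 2, *Cdh26* and *Itgb7* without WT replicate 1, *Itga11* without WT replicate 3). KO against WT ranged from 0 to 1 (*Cdh23* without KO replicate 2, *Cdh26* without WT replicate 1, *Itga5* without WT replicate 3). KO against HET gave 0 without HET replicate 3 and KO replicate 3, and with single libraries left out ranged from 0 (without HET replicate 1 or 3) to 3 (*Itga4*, *Cdh10* and *Itga2b* without HET replicate 2). *Itga4* was joined by *Cdh12* without KO replicate 1 and by *Itga5* without WT replicate 3, each giving 2, and was replaced by *Cdh23* without KO replicate 2. Over all genes these counts moved too. HET against WT gave 210 of 14239 without a trend. Without HET replicate 3 and KO replicate 3 the counts were 271, 217 and 223 of 14170 in the order HET against WT, KO against WT and KO against HET. With single libraries left out they ranged from 116 to 393, from 70 to 289 and from 141 to 298, of 14194 to 14214 genes. The median log2FC of KO against HET became 0.043 without HET replicate 3 and KO replicate 3. The direction was kept in every setting by 17 genes in HET against WT, 19 in KO against WT and 10 in KO against HET.

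*Cdh8* and *Cdh22* changed sign. Without HET replicate 3 and KO replicate 3, *Cdh8* stood at −0.145 in HET and −0.078 in KO, and *Cdh22* at −0.012 and −0.105. With array weights, *Cdh8* gave −0.056 and −0.075, and *Cdh22* in KO gave −0.039, and the cause was not tested. With single libraries left out, *Cdh8* ranged from −0.145 to 0.41 in HET and from −0.078 to 0.25 in KO, and *Cdh22* from −0.012 to 0.41 and from −0.105 to 0.41. *Cdh26* stood at −0.999 in HET and −1.08 in KO with a pseudocount of 8. A filter of 50 in 3 libraries removed *Cdh1*, *Cdh26*, *Itgal* and *Itgb7*. *Cdh26* also failed the main filter without HET replicate 2, WT replicate 2 or WT replicate 3.

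A replicate block leaves fitted values as they are in this balanced design (0.60 for *Itga4* in KO against HET) and changes their errors. With it *Itga4* had an unadjusted p of 0.0188 in limma, and 0 of the other genes of the 41 passed 0.05 in any comparison. Over all genes the unadjusted counts went from 158 to 365 in HET against WT, from 117 to 310 in KO against WT and from 186 to 318 in KO against HET, and 0 genes passed the adjusted threshold.

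The limits are 3 mice per genotype, an unknown depth in reads, and a median standard error of 0.19 on the log2 scale, against a median absolute log2FC of 0.13 in HET and 0.099 in KO.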
